A study of Mus musculus with 9 samples.

Results

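Plau, Plat, Plaur, Serpinb2, Procr, Thbd, F3 and Tfpi are 8 genes of plasminogen activation and blood coagulation, taken by symbol from the 49671 genes counted in Panc02, a mouse pancreatic ductal adenocarcinoma line. They were selected on their measured levels in these same libraries, so the group differences given here are a description, and adjusted p-values printed for them come from the fit over all genes and are no independent evidence. Bulk poly(A) RNA was sequenced in 9 libraries of 3 groups, 3 libraries each. KO_1E7 is a single clone labelled as a CRISPR-Cas9 knockout of VPAC2. That protein, the product of Vipr2, is a cAMP-raising receptor of the peptide VIP. CRISPR_1G2 is a single clone that went through the same editing and is labelled wild type, although the series' design text speaks of 2 clones from the knockout cells. The parental group is the unedited line. All cells were Panc02 grown in DMEM with 10% serum and had no treatment. Each genotype was 1 clone or line, so a difference between genotypes and a difference between clones cannot be told apart.

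Urokinase, encoded by Plau, and tissue plasminogen activator, encoded by Plat, cut plasminogen into plasmin, the protease that dissolves fibrin and acts on matrix proteins. Plaur encodes the receptor that holds urokinase at the cell surface, and Serpinb2 encodes an inhibitor of urokinase and of tissue plasminogen activator. Clotting starts when tissue factor, encoded by F3, binds factor VII at a cell surface. Tissue factor pathway inhibitor, encoded by Tfpi, blocks that complex and activated factor X. Thrombomodulin, encoded by Thbd, binds thrombin and turns it to the activation of protein C, which the endothelial protein C receptor, encoded by Procr, presents to it. Tissue factor and the urokinase system are well known in pancreatic carcinoma cells, and Procr and Thbd are best known from endothelium.

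The promoters of Procr, Plaur and Tfpi are printed because these 3 genes passed the test between KO_1E7 and parental, as 5.42% of all tested genes did, and that of F3 because Tfpi inhibits its product. A RefSeq promoter of GRCm38.p6 was matched for 5 of the 8 members, the others being Plau, Plat and Thbd. Capitals mark matches on either strand to TGANTCA, the motif of the AP-1 factors, to TGACG, the core shared with the cAMP response element TGACGTCA, to GGGCGG of SP1 and to TATAAA. The stretches run 5′ to 3′ and end before the gene's start in RefSeq or in the GENCODE M21 annotation, whichever comes first. They lie at chr2:155750967-155751116 for Procr, chr7:24462233-24462482 for Plaur and chr3:121723287-121723536 for F3, all on the plus strand, and at chr2:84476776-84477009 on the minus strand for Tfpi.
Procr: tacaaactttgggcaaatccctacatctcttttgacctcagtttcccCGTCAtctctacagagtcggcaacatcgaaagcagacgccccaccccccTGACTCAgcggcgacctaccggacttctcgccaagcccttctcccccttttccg
Plaur: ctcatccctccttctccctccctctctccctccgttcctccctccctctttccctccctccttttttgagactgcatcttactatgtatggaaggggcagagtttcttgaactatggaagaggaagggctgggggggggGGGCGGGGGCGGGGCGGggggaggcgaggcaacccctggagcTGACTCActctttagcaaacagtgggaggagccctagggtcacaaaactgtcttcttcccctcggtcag
F3: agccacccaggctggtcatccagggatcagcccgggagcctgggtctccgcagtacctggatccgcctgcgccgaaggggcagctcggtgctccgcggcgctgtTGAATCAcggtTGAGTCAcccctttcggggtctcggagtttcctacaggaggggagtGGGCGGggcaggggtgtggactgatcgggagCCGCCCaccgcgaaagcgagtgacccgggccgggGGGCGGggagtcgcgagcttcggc
Tfpi: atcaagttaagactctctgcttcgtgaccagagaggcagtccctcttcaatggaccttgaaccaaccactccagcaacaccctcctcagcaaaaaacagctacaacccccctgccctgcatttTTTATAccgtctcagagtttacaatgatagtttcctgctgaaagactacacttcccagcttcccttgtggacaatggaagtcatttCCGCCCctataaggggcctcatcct
AP-1 motifs stood 154 bases before the RefSeq start of Procr, 69 before that of Plaur, and 146 and 135 before that of F3, while the window of Tfpi held no match. Serpinb2, whose sequence is not shown, had a match 94 bases before its start and TATAAA 29 bases before it. Among all 32851 promoters of that table, 6.75% held the AP-1 motif within 250 bases before the start, 32.7% that of SP1, 17.8% TGACG, 1.55% the whole cAMP response element and 12.4% TATAAA. No window of the 5 members with a matched promoter held the whole cAMP response element. Of the printed stretches, that of Procr has 150 bases and that of Tfpi 234, which leaves out the bases nearest their RefSeq starts. Neighbouring SP1 matches of Plaur share bases. These matches describe letters only.

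Between 27898705 and 51878289 counts per library fell on genes, and 15766 genes, all 8 members among them, passed the expression filter. Values are CPM, the count of a gene scaled to a common library size, with sizes adjusted by edgeR's TMM factors. Vipr2, the edited gene, had 1, 2 and 1 counts in KO_1E7 libraries 1 to 3, 1, 13 and 12 in CRISPR_1G2, and 6, 3 and 12 in parental. It was called in none of the comparisons between groups, and the counts do not show whether the gene's product was lost. The third library of each group has a sample file whose name carries the word NSG, whereas the other files carry dates; what NSG stands for is not given. Of these, 2 stood apart: the summed CPM of 15 p53 target genes was 7628 in CRISPR_1G2 3 and 3615 in parental 3, against 1423 to 2351 in the other libraries of these 2 groups and 1539 to 1569 in KO_1E7. In parental 3, the transcript CT010467.1 took 15.3% of gene counts, against 0.465% to 1.04% in the other libraries. Endothelial markers, Pecam1, Cdh5 and Kdr among them, summed to 0.925 to 1.40 CPM in KO_1E7, 0.872 to 2.78 in CRISPR_1G2 and 0.745 to 2.08 in parental over 8 genes, of which 2 passed the filter. Duct and epithelial markers summed to 1287 to 2108 CPM in KO_1E7, 896 to 2113 in CRISPR_1G2 and 1361 to 2052 in parental.

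The 8 genes spanned a wide range of levels, and Plaur was the highest in every group. Per kilobase of exon (RPKM), Plaur averaged 20.1 ± 6.43 in KO_1E7, 54.6 ± 2.88 in CRISPR_1G2 and 51.2 ± 14.4 in parental (SD, n = 3 each). After Plaur, the order in RPKM in KO_1E7 was Plat at 7.51 ± 3.29, Procr at 6.01 ± 0.741, F3 at 2.32 ± 0.286, Plau at 2.16 ± 0.103, Thbd at 1.99 ± 0.246, Serpinb2 at 0.116 ± 0.0520 and Tfpi at 0.110 ± 0.114 (SD, n = 3). There the ranges of Plat and Procr overlapped, as did those of F3, Plau and Thbd, and those of Serpinb2 and Tfpi. In CRISPR_1G2 the order after Plaur was F3 at 6.11 ± 4.92 RPKM, Plau at 6.03 ± 1.98, Thbd at 3.54 ± 0.978, Plat at 3.44 ± 1.23, Tfpi at 0.348 ± 0.0940, Serpinb2 at 0.321 ± 0.160 and Procr at 0.0436 ± 0.0251 (SD, n = 3). In parental it was Thbd at 7.16 ± 5.13 RPKM, Plat at 5.24 ± 0.593, F3 at 4.94 ± 1.90, Plau at 4.50 ± 2.81, Tfpi at 0.753 ± 0.0895, Procr at 0.679 ± 0.123 and Serpinb2 at 0.148 ± 0.0871 (SD, n = 3). In the CRISPR_1G2 order F3 overlapped Plau in range, Thbd overlapped Plat and Tfpi overlapped Serpinb2, while the lowest Plau library was above the highest Thbd library. The mean of F3 there rested on library 3 at 11.8 RPKM. In libraries 1 and 2 it had 3.09 and 3.46 RPKM, below Plau and Plat. In parental neighbours from Thbd to Plau overlapped, as did Tfpi with Procr. Thbd had 5.72, 2.90 and 12.9 RPKM in parental libraries 1 to 3, and in the second it was below Plat and F3. Procr was thus the third of the 8 genes in KO_1E7, the last in CRISPR_1G2 and the seventh in parental.

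**Figure D1:**
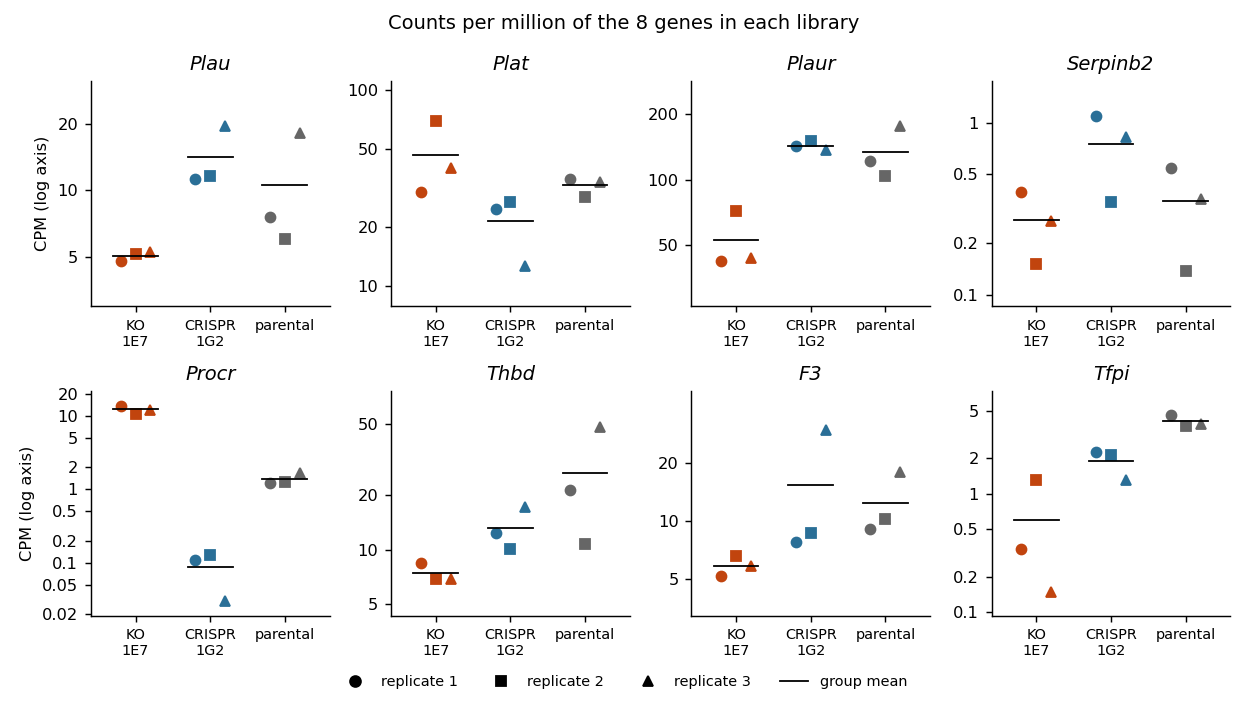
CPM of each gene (log axis) in the 3 libraries of KO_1E7, CRISPR_1G2 and parental; point shapes give the replicate and bars the group mean. Procr lies between 10.7 and 13.7 CPM in KO_1E7, at or under 0.126 CPM in CRISPR_1G2 and between 1.23 and 1.67 CPM in parental, and Plaur is lower in KO_1E7 than in every other library.

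Procr (ENSMUSG00000027611, chromosome 2, 155751117 to 155755471 on the plus strand of GRCm38) set the 3 groups apart. It was read at 13.7, 10.7 and 12.1 CPM in KO_1E7 libraries 1 to 3, at 0.109, 0.126 and 0.0305 CPM in CRISPR_1G2 and at 1.23, 1.24 and 1.67 CPM in parental. No library of one group came near another group: KO_1E7 was highest, parental was in between and CRISPR_1G2 was close to the limit of detection. The counts behind these values were 486, 566 and 407 in KO_1E7, 3, 4 and 1 in CRISPR_1G2, and 45, 45 and 60 in parental. Over pooled counts, KO_1E7 held 8.70 times the parental level (exact 95% interval 7.35 to 10.4) and 138 times the CRISPR_1G2 level (69.8 to 320), and CRISPR_1G2 held 0.0631 times the parental level (0.0267 to 0.127). These intervals cover counting error only. In bulk RNA, fewer cells that make a transcript and less transcript per cell cannot be told apart.

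In the edgeR quasi-likelihood fit across all genes, Procr had a log2 fold change of 3.14 ± 0.32 (SE) in KO_1E7 against parental, adjusted p = 0.00463 by Benjamini-Hochberg, and ranked 40 from the top of 15766 genes. CRISPR_1G2 against parental gave -3.93 ± 0.40, adjusted p = 0.00574, which ranked 40 from the bottom. KO_1E7 against CRISPR_1G2 gave 7.07 ± 0.41, adjusted p = 9.64e-05, which ranked 17 from the top. The CRISPR_1G2 call was lost when KO_1E7 was kept out of the fit, with adjusted p = 0.111 against 3.42e-09 to 0.0413 under the other alternatives. Between libraries that share a name, the log2 difference was 3.42 for KO_1E7 1 against parental 1, 2.82 for KO_1E7 3 against parental 3, -2.98 for CRISPR_1G2 1 against parental 2, -4.32 for CRISPR_1G2 3 against parental 3 and 7.14 for KO_1E7 3 against CRISPR_1G2 3, each with 1 library a side and no test.

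Other tested genes near Procr were listed after their values were seen. Procr, unlike these neighbours, was chosen on its own levels, so nothing is read from its larger difference. Of 42 other tested genes whose starts lie within 1 Mb, 1 was called in KO_1E7 against parental, Scand1 with a log2 fold change of -1.80, 0 in CRISPR_1G2 against parental, and 3 in KO_1E7 against CRISPR_1G2. Those 3 were Myh7b at -3.21, Eif6 at -0.95 and Gss at -0.88, all lower in KO_1E7. Log2 fold changes of the 42 genes ran from -2.62 to 1.06 in KO_1E7 against parental and from -1.13 to 0.92 in CRISPR_1G2 against parental, so Procr lay outside both ranges. The nearest tested genes, Edem2 and Mmp24, had log2 fold changes of 0.12 ± 0.31 and -1.22 ± 0.81 (SE) in KO_1E7 against parental, and 0.21 ± 0.31 and 0.69 ± 0.75 in CRISPR_1G2 against parental.

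**Figure D2:**
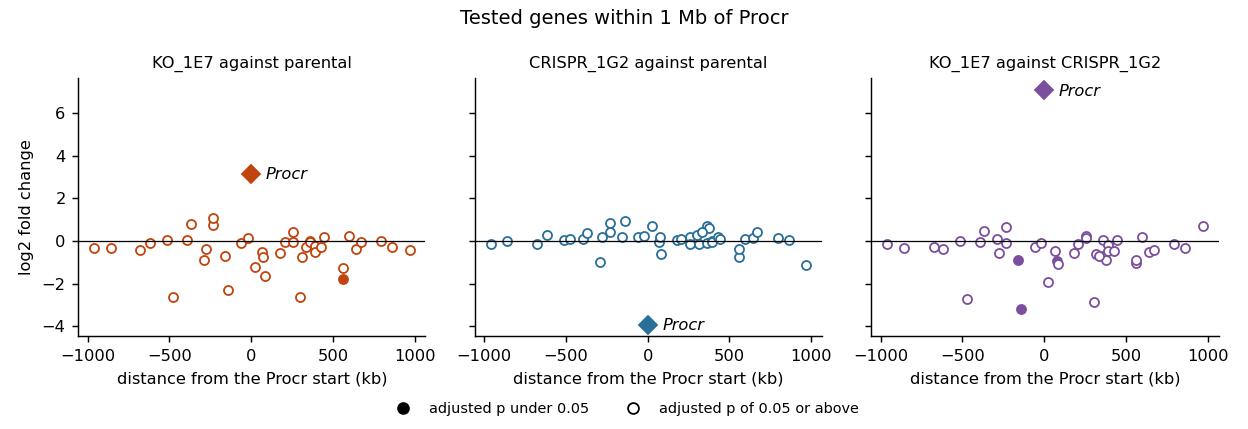
Log2 fold change of each tested gene within 1 Mb of Procr (vertical axis) against the distance of its start from that of Procr (kb), in the 3 comparisons; filled points have adjusted p under 0.05. Procr, the diamond, stands above the 42 other genes in KO_1E7 against parental and below them in CRISPR_1G2 against parental.

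Thbd (ENSMUSG00000074743, chromosome 2, 148404466 to 148408188 on the minus strand) acts in the same reaction as Procr and lies on the same chromosome, but did not share its pattern. Thrombomodulin RNA stood at 8.45, 6.86 and 6.87 CPM in KO_1E7 libraries 1 to 3, 12.3, 10.1 and 17.2 CPM in CRISPR_1G2, and 21.3, 10.8 and 47.8 CPM in parental. All 3 KO_1E7 libraries lay below every other library, while parental 3 was far above the other parental libraries. The log2 fold change of KO_1E7 against parental was -1.85 ± 0.48 (SE) with adjusted p = 0.0596 by edgeR, so Thbd was not called. It was called in 6 of 18 alternatives, among them DESeq2 (adjusted p = 0.00246), with a term for library 3 of each group (0.0282), without CRISPR_1G2 3 (0.0403), without parental 2 (0.0355) and without CRISPR_1G2 3 and parental 3 together (0.0256, at a log2 fold change of -1.12), in a range of 0.00246 to 0.218 over the alternatives. CRISPR_1G2 against parental gave -1.01 and KO_1E7 against CRISPR_1G2 gave -0.84, neither called. Procr over Thbd, as a ratio of RPKM, was 2.87 to 3.24 in KO_1E7, 0.00326 to 0.0230 in CRISPR_1G2 and 0.0639 to 0.211 in parental.

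Plaur (ENSMUSG00000046223, chromosome 7, 24462484 to 24475968 on the plus strand), the urokinase receptor, was lower in KO_1E7 than in both other groups. Its level was 42.2, 72.1 and 43.8 CPM in KO_1E7 libraries 1 to 3, 142, 151 and 136 CPM in CRISPR_1G2, and 121, 104 and 176 CPM in parental. The highest KO_1E7 library, the second, was still below the lowest parental library, and CRISPR_1G2 lay within the parental range. The fit gave -1.35 ± 0.26 (SE) in KO_1E7 against parental, adjusted p = 0.0260 by edgeR, -1.44 ± 0.26 in KO_1E7 against CRISPR_1G2, adjusted p = 0.0110, and 0.09 in CRISPR_1G2 against parental, not called. The call against parental was lost without KO_1E7 1 (adjusted p = 0.109), KO_1E7 3 (0.134), parental 1 (0.0700) or parental 3 (0.0570), in a range of 0.000163 to 0.134 over the alternatives. That against CRISPR_1G2 was lost without KO_1E7 1 (0.0544) or KO_1E7 3 (0.0614), in a range of 1.71e-05 to 0.0614. Libraries that share a name gave log2 differences of -1.52 for KO_1E7 1 against parental 1, -2.01 for KO_1E7 3 against parental 3 and -1.63 for KO_1E7 3 against CRISPR_1G2 3.

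Chromosome 7, which carries Plaur, was itself lower in KO_1E7: over 1240 tested genes the median log2 fold change against parental was -0.45, with -0.03 over all genes, and 133 of them were called lower and 15 higher. Against CRISPR_1G2 the median was -0.53, with -0.03 over all genes. Smg9, the nearest tested gene before Plaur, had -0.92 ± 0.20 (SE) against parental, adjusted p = 0.0375 by edgeR, and -0.90 ± 0.20 against CRISPR_1G2, adjusted p = 0.0235. Cadm4, the nearest after it, had -1.71 ± 0.69 against parental, adjusted p = 0.180, and -3.17 ± 0.72 against CRISPR_1G2, adjusted p = 0.0248. The part of these chromosome-wide values in the level of Plaur was not tested.

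Plau (ENSMUSG00000021822, chromosome 14, 20836662 to 20843388 on the plus strand), which encodes urokinase, had its lowest levels in KO_1E7. It measured 4.78, 5.15 and 5.22 CPM in KO_1E7 libraries 1 to 3, 11.3, 11.6 and 19.5 CPM in CRISPR_1G2, and 7.57, 5.99 and 18.1 CPM in parental. The KO_1E7 libraries lay below all others, closely so for parental 2, and the third library was the highest of both other groups. The log2 fold change was -1.48 ± 0.42 (SE) in KO_1E7 against CRISPR_1G2, adjusted p = 0.0494 by edgeR, -1.06 ± 0.41 in KO_1E7 against parental, adjusted p = 0.163, and 0.42 in CRISPR_1G2 against parental, not called. The call between the clones was lost with another scaling (adjusted p = 0.0511 with relative log expression) and without KO_1E7 1 (0.156), KO_1E7 2 (0.115), KO_1E7 3 (0.156), CRISPR_1G2 1 (0.0768), CRISPR_1G2 2 (0.0814), CRISPR_1G2 3 (0.103) or parental 1 (0.0687), in a range of 0.00203 to 0.156 over the alternatives. KO_1E7 3 against CRISPR_1G2 3, which share a name, differed by -1.89. Chromosome 14 went the other way from Plau, with a median log2 fold change of 0.29 in KO_1E7 against parental over 505 genes.

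Plat (ENSMUSG00000031538, chromosome 8, 22757727 to 22782844 on the plus strand), the other plasminogen activator, had its highest mean in KO_1E7. Tissue plasminogen activator RNA was read at 30.4, 69.8 and 40.4 CPM in KO_1E7 libraries 1 to 3, 24.8, 26.9 and 12.7 CPM in CRISPR_1G2, and 35.4, 28.5 and 34.2 CPM in parental. KO_1E7 overlapped parental, while every KO_1E7 library was above every CRISPR_1G2 library. Its log2 fold change was 0.52 ± 0.35 (SE) in KO_1E7 against parental, -0.61 in CRISPR_1G2 against parental and 1.13 in KO_1E7 against CRISPR_1G2, the last with adjusted p = 0.0704 by edgeR, and none was called. The last was called by DESeq2 (adjusted p = 0.0195) and with a term for library 3 (0.0348), in a range of 0.0195 to 0.209. As a ratio of RPKM, Plat over Plau was 2.39 to 5.09 in KO_1E7, 0.244 to 0.868 in CRISPR_1G2 and 0.710 to 1.78 in parental. Over 892 genes tested on chromosome 8, the median difference of KO_1E7 against parental was 0.31 on the log2 scale, and Ikbkb, the nearest tested gene before Plat, had 0.51 ± 0.11, adjusted p = 0.0375 by edgeR.

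Serpinb2 (ENSMUSG00000062345, chromosome 1, 107511423 to 107535478 on the plus strand) was near the limit of detection in every group. This inhibitor of the plasminogen activators had 0.396, 0.152 and 0.269 CPM in KO_1E7 libraries 1 to 3, 1.09, 0.347 and 0.824 CPM in CRISPR_1G2, and 0.546, 0.138 and 0.361 CPM in parental. All groups overlapped, and in each the second library was the lowest. With all libraries edgeR called it in no comparison, with log2 fold changes of -0.38 ± 0.63 (SE) in KO_1E7 against parental, 1.10 in CRISPR_1G2 against parental and -1.48 in KO_1E7 against CRISPR_1G2. The last was called in 1 of 18 alternatives, with adjusted p from 0.0374 to 0.346 over them. Over 9 libraries it had 137 counts, and Serpinb10, which overlaps it on the same strand, had 7.

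F3 (ENSMUSG00000028128, chromosome 3, 121723537 to 121735048 on the plus strand), tissue factor, was lowest in KO_1E7. It had 5.17, 6.61 and 5.82 CPM in KO_1E7 libraries 1 to 3, 7.81, 8.73 and 29.8 CPM in CRISPR_1G2, and 9.15, 10.3 and 18.0 CPM in parental. No KO_1E7 library reached the lowest library of another group, and the third library was the highest of both other groups. The log2 fold change was -1.09 ± 0.51 (SE) in KO_1E7 against parental, adjusted p = 0.239 by edgeR, -1.40 in KO_1E7 against CRISPR_1G2, adjusted p = 0.111, and 0.31 in CRISPR_1G2 against parental. KO_1E7 against parental was called without CRISPR_1G2 3 (adjusted p = 0.0380) and without CRISPR_1G2 3 and parental 3 together (0.0199, at a log2 fold change of -0.72), in a range of 0.0199 to 0.516. KO_1E7 against CRISPR_1G2 was called by DESeq2 (0.0389), in a range of 0.0389 to 0.328. The sign of CRISPR_1G2 against parental turned without CRISPR_1G2 3, to -0.59.

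Tfpi (ENSMUSG00000027082, chromosome 2, 84432855 to 84476775 on the minus strand), the inhibitor of tissue factor, was the highest in parental and low everywhere. It stood at 0.339, 1.31 and 0.149 CPM in KO_1E7 libraries 1 to 3, 2.25, 2.14 and 1.31 CPM in CRISPR_1G2, and 4.67, 3.75 and 3.92 CPM in parental. Every parental library was above every clone library, and KO_1E7 2 was level with CRISPR_1G2 3. Counts were 12, 69 and 5 in KO_1E7, 62, 68 and 43 in CRISPR_1G2, and 171, 136 and 141 in parental. The log2 fold change was -2.73 ± 0.65 (SE) in KO_1E7 against parental, adjusted p = 0.0476 by edgeR, -1.11 in CRISPR_1G2 against parental and -1.62 in KO_1E7 against CRISPR_1G2, the last 2 not called. The call was lost with library totals as the scaling (adjusted p = 0.0567), with only the 2 groups in the fit (0.0627) and without KO_1E7 1 (0.175), KO_1E7 3 (0.140), CRISPR_1G2 1 (0.0788), CRISPR_1G2 2 (0.0821), parental 1 (0.128), parental 2 (0.0827) or parental 3 (0.0862), in a range of 0.000319 to 0.175. Without KO_1E7 2, KO_1E7 against CRISPR_1G2 came to -2.93 with adjusted p = 0.00967, in a range of 0.00967 to 0.331. Libraries that share a name gave -3.58 for KO_1E7 1 against parental 1 and -4.28 for KO_1E7 3 against parental 3. Chromosome 2, which carries Tfpi, Thbd and Procr, had a median log2 fold change of -0.19 in KO_1E7 against parental over 1220 tested genes. There 54 genes were called lower and 6 higher, and the median over all genes was -0.03. Against CRISPR_1G2 the median was -0.27, with -0.03 over all genes. The part of these chromosome-wide values in the levels of Tfpi and Thbd was not tested. The ratio of F3 to Tfpi in RPKM was 10.9 to 84.3 in KO_1E7, 7.50 to 49.1 in CRISPR_1G2 and 4.24 to 9.92 in parental, so that KO_1E7 lay above parental and overlapped CRISPR_1G2.

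Set against the whole table, 3 of the 8 members were called in KO_1E7 against parental, Procr higher and Plaur and Tfpi lower, where 5.42% of all tested genes were called, 2.54% higher and 2.87% lower. Scaled by library totals, 301 of 491 called genes were higher, against 401 of 854 with TMM. In CRISPR_1G2 against parental 1 member, Procr, was called, where 0.254% of genes were, all 40 of them lower, and DESeq2 called 43 of 183 higher. Between KO_1E7 and CRISPR_1G2 the calls were 3 members, Procr higher and Plaur and Plau lower, against 12.7% of genes, 5.71% higher and 7.03% lower. The members were chosen with these comparisons known, so nothing is read from these shares. Their median log2 fold change was -1.07 in KO_1E7 against parental, -0.26 in CRISPR_1G2 against parental and -1.42 in KO_1E7 against CRISPR_1G2, where all genes had -0.03, 0.02 and -0.03. The comparisons share libraries with each other. Under each of the 3 scalings the sign of every member was the same in these comparisons.

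**Figure D3:**
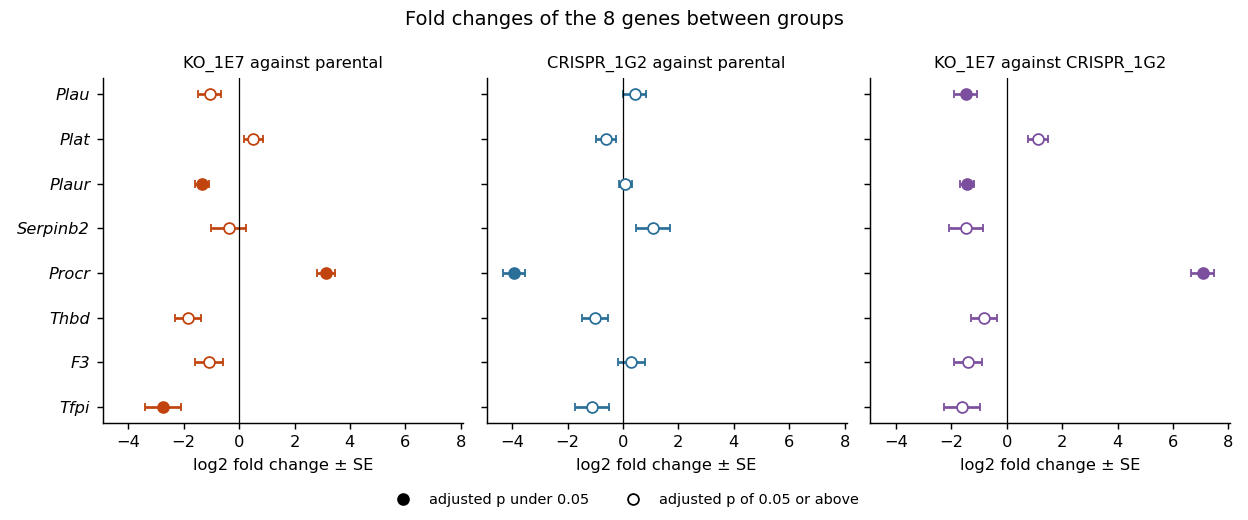
Log2 fold change ± SE of the 8 genes (horizontal axis) in the 3 comparisons; filled points have adjusted p under 0.05 in the fit across all genes. Procr is at 3.14, -3.93 and 7.07 from left to right, and 6 of 8 genes lie below 0 in KO_1E7 against parental.

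Library 3 of each group was compared with libraries 1 and 2 in a fit with group as a term, a difference that the choice of the genes did not use as far as is known. Plau had 1.05 times the mean of the other libraries of its group in KO_1E7, 1.70 times in CRISPR_1G2 and 2.67 times in parental. For F3 these ratios were 0.988 in KO_1E7, 3.60 in CRISPR_1G2 and 1.85 in parental, and for Thbd they were 0.897 in KO_1E7, 1.53 in CRISPR_1G2 and 2.98 in parental. All 3 genes were thus near or below 1 in KO_1E7 and above 1.5 in the other groups, as the p53 target sums were high in CRISPR_1G2 3 and parental 3 and level in KO_1E7. What part of the levels moves with those sums was not tested. Over the 3 groups the log2 fold change was 0.79 ± 0.23 (SE, adjusted p = 0.0805 by edgeR) for Plau, 0.98 ± 0.29 (0.0824) for F3 and 0.75 ± 0.32 (0.139) for Thbd, with library 3 higher in 3 of 3 groups for Plau and in 2 of 3 for F3 and Thbd. No member was called, and 0.0% of genes were: edgeR called 0 of 15766, with 5246 at an unadjusted p under 0.05, 3 members among them, while DESeq2 called 2952 genes and 2 members. Without KO_1E7 3, edgeR called 6248 genes and 3 members, Plau (adjusted p = 0.00202), F3 (0.00148) and Thbd (0.0248), and without KO_1E7 1 it called 1141 genes and 0 members. Over the alternatives the adjusted p ran from 0.00202 to 1.0 for Plau, 0.00148 to 1.0 for F3 and 0.0248 to 1.0 for Thbd. Procr, Plaur, Plat, Serpinb2 and Tfpi had no call there.

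**Figure D4:**
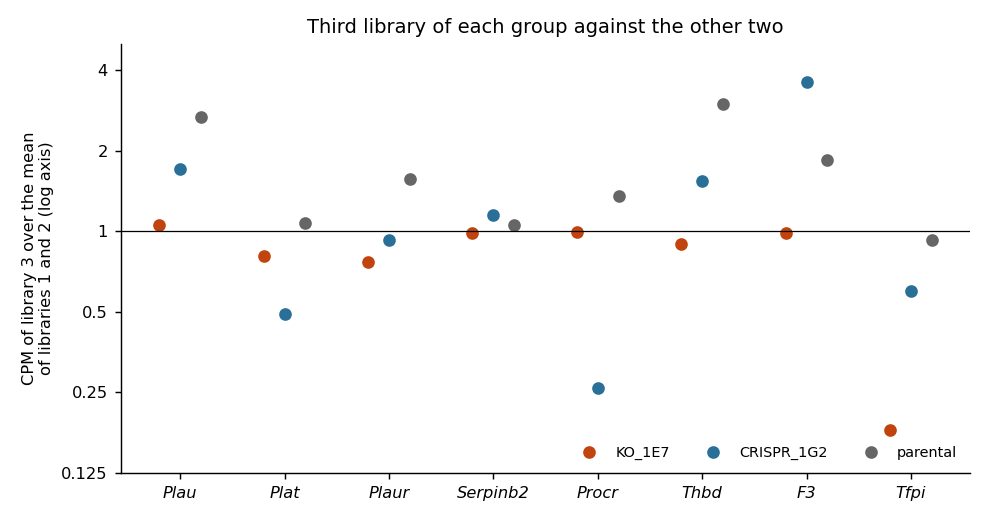
CPM of the third library over the mean of the first and second library of the same group (log axis), for the 8 genes in KO_1E7, CRISPR_1G2 and parental. F3, Plau and Thbd lie between 1.53 and 3.60 in CRISPR_1G2 and parental and between 0.897 and 1.05 in KO_1E7.

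Spread between replicates differed among the members as well. The SD of log2 CPM within groups was 0.34 for Plaur and 0.38 for Procr, near the median of 0.35 over all tested genes. It was 0.50 for Plat, 0.55 for Plau, 0.67 for Thbd, 0.69 for F3, 0.74 for Serpinb2 and 0.84 for Tfpi. For Tfpi, 89.8% of tested genes had a smaller one.

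Other genes of plasminogen activation were read from a list written, like those after it, with earlier results of these data known. Of 15 listed genes, 11 were tested, and 0 were called in KO_1E7 against parental, where 5.42% of all genes were, and 0 in CRISPR_1G2 against parental, where 0.254% were. In KO_1E7 against CRISPR_1G2, 2 were called higher and 0 lower, beside 5.71% and 7.03% of all genes, and nothing is read from counts so small. Serpini1, neuroserpin, an inhibitor of tissue plasminogen activator, averaged 2.95 ± 0.909 CPM in KO_1E7 and 0.599 ± 0.175 CPM in CRISPR_1G2 (SD, n = 3 each). Its log2 difference between the clones was 2.29 ± 0.35 (SE). Parental averaged 1.63 ± 0.181 CPM (SD, n = 3). Against it, KO_1E7 had 0.85 ± 0.33 and CRISPR_1G2 had -1.43 ± 0.35 (SE), neither called. Lrp1, an endocytic receptor of many ligands, averaged 296 ± 54.9 CPM in KO_1E7 and 175 ± 28.3 CPM in CRISPR_1G2 (SD, n = 3 each). Between the clones Lrp1 differed by 0.76 ± 0.20 (SE) on the log2 scale. The parental mean was 248 ± 46.3 CPM (SD, n = 3). From parental, KO_1E7 differed by 0.25 ± 0.20 and CRISPR_1G2 by -0.50 ± 0.20 (SE), neither called. Plg, plasminogen itself, is a liver product and was at 0 counts in all KO_1E7 and CRISPR_1G2 libraries and at most at 0.0276 CPM in parental. Over pooled libraries, the exact 95% interval of these 0 counts reached 0.0303 CPM in KO_1E7 and 0.0401 CPM in CRISPR_1G2. The list's median log2 fold change was 0.11 in KO_1E7 against parental and 0.22 in KO_1E7 against CRISPR_1G2, where all genes had -0.03 in both.

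Among coagulation factors and the proteins that process them, 9 of 22 genes were tested. Vkorc1, the enzyme that recycles vitamin K for the carboxylation of clotting factors, was the only one called, beside 5.42% of all genes in KO_1E7 against parental and 12.7% in KO_1E7 against CRISPR_1G2. It averaged 7.42 ± 0.204 CPM in KO_1E7, 11.4 ± 0.649 CPM in CRISPR_1G2 and 12.1 ± 1.20 CPM in parental (SD, n = 3 each), with log2 fold changes of -0.71 ± 0.16 (SE) in KO_1E7 against parental and -0.62 ± 0.16 in KO_1E7 against CRISPR_1G2. The list's median was 0.68 in KO_1E7 against parental, with 7 of 9 genes positive, so the called gene and the median differ in sign. Anticoagulant genes, such as Pros1 and Tfpi2, numbered 7 tested of 14, and 0 were called in any comparison between groups, beside shares of 5.42%, 0.254% and 12.7% of all genes in KO_1E7 against parental, CRISPR_1G2 against parental and KO_1E7 against CRISPR_1G2. The same count, 0, held for 6 tested of 8 protease-activated receptors and their partners. F2r, the main thrombin receptor, averaged 95.1 ± 13.8 CPM in KO_1E7, 119 ± 30.4 CPM in CRISPR_1G2 and 112 ± 40.2 CPM in parental (SD, n = 3 each), and the groups overlapped. F2rl1, which is cut by the complex of tissue factor and factor VII among other proteases, averaged 33.7 ± 4.33 CPM in KO_1E7, 76.8 ± 41.4 CPM in CRISPR_1G2 and 54.3 ± 19.9 CPM in parental (SD, n = 3 each), and these groups overlapped too.

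Clade B serpins, the family of Serpinb2, had 8 of 14 genes tested, and those called were all higher in KO_1E7: 1 against parental, where 2.54% of all genes were called higher, and 3 against CRISPR_1G2, where 5.71% were. Serpinb9, the inhibitor of granzyme B, averaged 25.6 ± 12.5 CPM in KO_1E7, 3.84 ± 0.471 CPM in CRISPR_1G2 and 7.05 ± 1.13 CPM in parental (SD, n = 3 each). It rose in KO_1E7 by 1.86 ± 0.36 (SE) against parental and by 2.73 ± 0.37 against CRISPR_1G2 on the log2 scale. Serpinb6b averaged 49.1 ± 24.0 CPM in KO_1E7, 9.50 ± 7.30 CPM in CRISPR_1G2 and 14.0 ± 9.56 CPM in parental (SD, n = 3 each), and was called against CRISPR_1G2 with 2.37 ± 0.66 (SE). Serpinb1b was called against CRISPR_1G2 as well, with 105, 19 and 51 counts in KO_1E7 libraries 1 to 3 and 0, 0 and 3 in CRISPR_1G2. Serpinb1b and Serpinb6b have close relatives in the mouse genome, and the split of reads between such copies is uncertain. The median log2 fold change of the list was 0.74 in KO_1E7 against parental and -0.21 in KO_1E7 against CRISPR_1G2, so in the second comparison the called genes and the median differ in sign. In CRISPR_1G2 against parental 0 genes of these 5 lists were called.

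**Figure D5:**
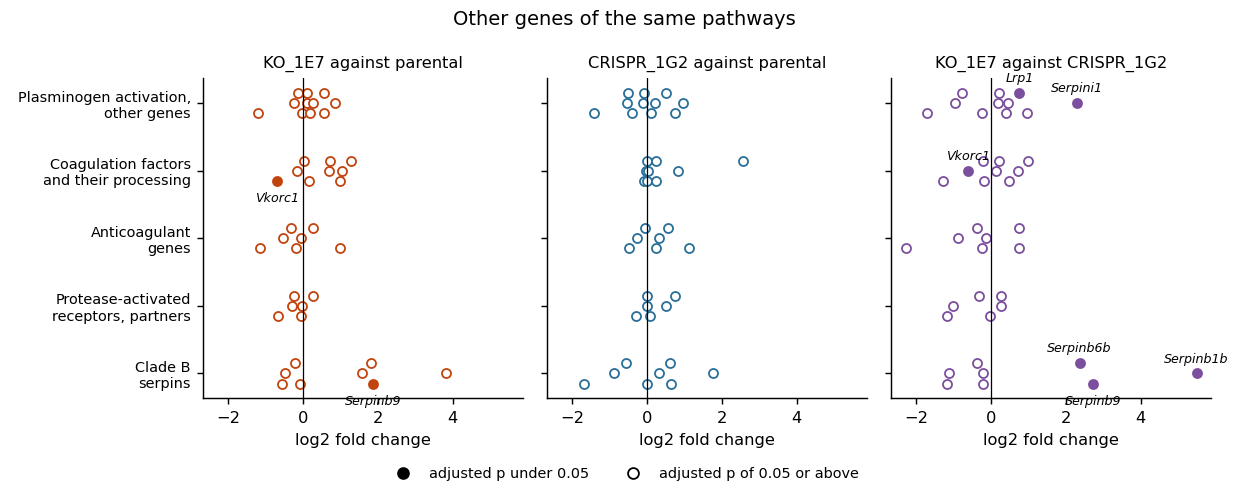
Log2 fold change (horizontal axis) of the tested genes of 5 lists in the 3 comparisons; filled points have adjusted p under 0.05 and are named. Called genes number 2 in KO_1E7 against parental, 0 in CRISPR_1G2 against parental and 6 in KO_1E7 against CRISPR_1G2.

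Across the 9 libraries, each member was set beside tested genes taken from the 3 with the highest Pearson r of log2 CPM, as a description in which the points share their group and depth. Procr was most like Zfp493 and Thbs2 (r = 0.993 each). Genes close to Plaur were Tmcc3 (0.983) and Nabp1 (0.981), and Plau was most like Myh7b (0.993), Zscan4d (0.987) and Lif (0.983). For Plat the nearest were Mir5125 (0.977), Cpsf6 (0.976) and Foxl1 (0.976), and for Thbd they were Mtmr10 (0.978), Mamdc2 (0.973) and Gm16976 (0.964). F3 stood nearest to 1700102P08Rik (0.990), Irgq (0.986) and Tnrc6a (0.986), Tfpi to Egfl7 (0.972), Cldn9 (0.968) and Ahnak (0.959), and Serpinb2 to Pglyrp1 (0.929), Lrmp (0.868) and Nradd (0.856). Among the members themselves, r over 9 libraries was highest for Plaur with Tfpi (0.857), Plau with F3 (0.856) and Plau with Plaur (0.831), and lowest for Procr with Plaur (-0.812). Other tested neighbours along the chromosomes were Camk2g and Vcl beside Plau, Ap3m2 beside Plat, Serpinb5 and Serpinb8 beside Serpinb2, Foxa2 and Cd93 beside Thbd, Cnn3 and Abcd3 beside F3, and Fam171b and Ctnnd1 beside Tfpi, none of which was called between groups.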

How the data were processed

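Per the labels' protocols, poly(A) RNA of frozen pellets was made into libraries with the NEBNext Ultra II kit, whose reads carry no strand. The submitters' processing notes name STAR 2.5.2b, featureCounts (Subread 1.5.2) and GRCm38. For the counting, annotation release and strand setting are not given in sources used here. Raw counts per gene were deposited by the authors for 49671 genes and 92 spike-in controls; the tables per sample and the series table differed in 0 cells. Spike-ins, at 0.344% to 0.820% of counts, entered neither library sizes nor tests. Gene lengths and symbols were those of the deposited tables, and 174 genes had no symbol.

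Groups were taken from the sample titles. The 8 members and all gene lists were chosen with earlier results of these data known. Counts were tested in R 4.3.3 with the robust quasi-likelihood F-test of edgeR 4.0.16 (TMM scaling, edgeR's expression filter by group, all 9 libraries in 1 fit), adjusted by Benjamini-Hochberg over 15766 genes and called at 0.05; the script was tested on simulated data. Alternatives were DESeq2 1.42.0, other scalings, no filter, only the 2 groups compared, a replicate block, a term for library 3 of each group, no robust step, each library left out in turn and CRISPR_1G2 3 with parental 3 left out. Named were the members, called genes of the lists (at most 10 a list) with Plg, F2r and F2rl1, the 3 genes most like each member, neighbours and Vipr2; genes within 1 Mb of Procr, CT010467.1 and the p53 target sum were added after their values were seen. Some genes this rule names are not reported here. Correlations used log2 CPM with a prior count of 2. Intervals are exact at the 95% level. The smallest p of an exact permutation test of 3 against 3 libraries is 0.1, so none was used. Nothing says that replicates came from separate cultures, so p-values measure the spread between these libraries, which may be technical. No 2 libraries of a group agreed within sampling noise.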

Additional observations from a re-analysis of the deposited data

Results flagged for a closer look

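Between the clones, 3 of the 8 genes differed in the test of that difference itself, so that their distance from the parental line differed between KO_1E7 and CRISPR_1G2. The log2 difference of KO_1E7 against CRISPR_1G2 was 7.07 for Procr, with KO_1E7 above and CRISPR_1G2 below parental. It was -1.44 for Plaur and -1.48 for Plau, where KO_1E7 was the lower clone. The adjusted p by edgeR was 9.64e-05 for Procr, 0.0110 for Plaur and 0.0494 for Plau. With 1 library left out, Plaur lost its call without KO_1E7 1 or KO_1E7 3, and Plau in 7 of 9 such fits and with relative log expression as the scaling. In this comparison 12.7% of all tested genes were called. Each of the 3 genes had all KO_1E7 libraries on 1 side of all CRISPR_1G2 libraries. The same held for Thbd, F3, Tfpi and Plat, which were not called. How many of all tested genes were separated in this way was not counted, so nothing is read from it. The genes were chosen with this comparison known. With 3 libraries a group, no single library was tested for standing apart from its group.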

How the results depend on the processing

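Counts of called genes moved with the processing. In KO_1E7 against parental 854 genes and 3 members were called; DESeq2 called 2049 genes, library totals as the scaling 491, no expression filter 546, a term for library 3 of each group 2060, and leaving out libraries CRISPR_1G2 3 and parental 3 together 3330 genes and 5 members. In CRISPR_1G2 against parental 40 genes and 1 member were called, with 183 genes by DESeq2 and 16 genes and 0 members with only the 2 groups in the fit. In KO_1E7 against CRISPR_1G2 2010 genes and 3 members were called, with 3069 genes and 5 members by DESeq2, 3330 genes with the term for library 3 and 4615 without those 2 libraries. For library 3 against libraries 1 and 2, 0 genes were called; DESeq2 called 2952 genes and 2 members, library totals 17 genes, and no filter 1584 genes and 1 member.

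Replicate numbers did not pair the samples: deviations of same-numbered libraries correlated from -0.05 to 0.65, and not every pair was over 0.1. With the replicate block, 1298 genes were called in KO_1E7 against parental, 37 in CRISPR_1G2 against parental and 2614 in KO_1E7 against CRISPR_1G2. It also called Thbd in KO_1E7 against parental (adjusted p = 0.0413) and Serpinb2 in KO_1E7 against CRISPR_1G2 (0.0374). Libraries did not all correlate best with their own number. The numbers do not follow the file names, since CRISPR_1G2 1 shares its name with parental 2. That pair correlated at 0.54, and CRISPR_1G2 3 with parental 3 at 0.65. Of the other pairs that share a name, KO_1E7 1 with parental 1 had -0.003. KO_1E7 3 had 0.15 with parental 3 and 0.07 with CRISPR_1G2 3.

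Leaving out 1 library at a time gave 24 (without KO_1E7 3) to 1998 (without CRISPR_1G2 3) called genes and 1 to 5 members in KO_1E7 against parental, where the other counts outside 1.5 times the full one were 49 without KO_1E7 1, 385 and 363 without CRISPR_1G2 1 and 2, and 168, 350 and 339 without parental 1, 2 and 3. It gave 15 (without CRISPR_1G2 1) to 71 (without parental 1) genes in CRISPR_1G2 against parental, with 19 each without KO_1E7 1 and 3 and 18 without CRISPR_1G2 2. In KO_1E7 against CRISPR_1G2 it gave 453 (without KO_1E7 3) to 2332 (without parental 3) genes and 1 to 3 members, with 553 without KO_1E7 1, 947 without CRISPR_1G2 1, 949 without CRISPR_1G2 2 and 1284 without parental 1. For library 3 the range was 0 to 6248 genes and 0 to 3 members.

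Signs turned only for members that edgeR did not call in that comparison with all libraries. Leaving out 1 library, log2 fold changes ran from -0.75 to 0.11 for Serpinb2 in KO_1E7 against parental, and from -0.59 to 0.67 for F3 and from -0.054 to 0.34 for Plaur in CRISPR_1G2 against parental. For library 3 they ran from -0.11 to 0.40 for Serpinb2, from -0.25 to 0.19 for Procr and from -0.24 to 0.28 for Plaur. Procr there was -0.045 with library totals and -0.018 without a filter. Without CRISPR_1G2 3 and parental 3, F3 in CRISPR_1G2 against parental was -0.24, and for library 3 Thbd was -0.17, Procr -0.024, F3 -0.037 and Plaur -0.40. The cause was not tested. Of the other values under alternatives, 537 kept their sign and their side of the threshold or stayed within the stated limits. Precision at low counts is limited for Procr in CRISPR_1G2, Serpinb2 and Tfpi.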

Other observations

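Among 15 p53 target genes, all of them tested, 1 was called higher and 2 lower in KO_1E7 against parental, and 0 higher and 3 lower in KO_1E7 against CRISPR_1G2. Over all genes these shares were 2.54% higher and 2.87% lower against parental, and 5.71% higher and 7.03% lower against CRISPR_1G2. Bax, which opens mitochondria in apoptosis, had log2 fold changes of -0.55 ± 0.13 (SE) against parental and -0.77 ± 0.13 against CRISPR_1G2. Perp, a membrane protein of desmosomes and apoptosis, had -1.57 ± 0.34 and -2.21 ± 0.35 in the same comparisons. Tnfrsf10b, a death receptor, had 0.61 ± 0.12 against parental, and Phlda3 had -2.03 ± 0.53 against CRISPR_1G2. The list's median in KO_1E7 against CRISPR_1G2 was -2.03, where all genes had -0.03, and its sum was high in CRISPR_1G2 3 and parental 3 as given with F3, Plau and Thbd.

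Some markers of cell types were called, beside 5.42% of all genes in KO_1E7 against parental and 12.7% in KO_1E7 against CRISPR_1G2. Of 10 duct and epithelial markers, all tested, Krt7 was lower in KO_1E7, with a log2 fold change of -2.50 ± 0.51 (SE) against parental and -3.23 ± 0.53 against CRISPR_1G2, and Epcam was lower with -2.83 ± 0.67 against CRISPR_1G2. Cela1, the only one of 8 acinar markers that was tested, averaged 10.8 ± 3.06 CPM in KO_1E7, 1.40 ± 0.615 CPM in CRISPR_1G2 and 2.30 ± 0.330 CPM in parental (SD, n = 3 each), while 7 of the 8 were under 10 counts in every library. Of 7 fibroblast markers 4 were tested, and 3 were called in KO_1E7 against CRISPR_1G2. Pdgfrb was higher in KO_1E7 with 1.83 ± 0.32, Col1a2 higher with 3.67 ± 1.02 and Col1a1 lower with -1.59 ± 0.43. None was called in either clone against parental. There CRISPR_1G2 had -1.27 for Pdgfrb, -2.21 for Col1a2 and 1.13 for Col1a1, and KO_1E7 had 0.56, 1.46 and -0.46. Col1a2 had 21 counts over the CRISPR_1G2 libraries and ran from 0.872 to 6.47 CPM in KO_1E7. Macrophage and leukocyte markers summed to 20.5 to 21.9 CPM in KO_1E7, 19.0 to 28.4 in CRISPR_1G2 and 3.81 to 22.5 in parental over 8 genes, platelet markers to 1.36 to 3.94, 1.78 to 10.6 and 1.52 to 7.53 CPM in the same groups, and 0 genes of either list were called. Hepatocyte markers reached at most 0.183 CPM in any library.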
